A study of Mus musculus with 2 samples.

Results

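The 10 genes described here are 9 constant-region genes of immunoglobulin (antibody) chains and the gene of the joining chain. They were taken by symbol from a list of names, and 10 of 10 were found among the 32286 features of the deposited matrices. Ighm, Ighd, Igha, Ighg1, Ighg2b, Ighg2c and Ighg3 encode the constant parts of the heavy chains of IgM, IgD, IgA and 4 IgG subclasses. Igkc and Iglc2 encode constant parts of kappa and lambda light chains, and Jchain encodes the joining (J) chain.

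Bone marrow hematopoietic cells of mice were measured by droplet-based sequencing of transcript 3′ ends in 2 libraries, 1 for each genotype. The control library came from Mx1Cre+/-;Rosa26+/+ marrow, labelled as wild type in its title. The other, called the MYC library, came from Mx1Cre+/-;Rosa26LSL-MYC/LSL-MYC marrow. Both genotypes thus carry Mx1-Cre, which expresses Cre under a promoter that interferon induces and that is active in many cell types besides stem cells. LSL-MYC is a MYC transgene kept silent by a stop cassette until Cre cuts the cassette out. The age, the number of mice behind each library and any induction of Cre are not given in the sources used here. The series asked how expression in marrow cells differs after MYC is overexpressed in hematopoietic stem cells. With 1 library a group there is no replicate check and no test: intervals are 95% limits for counting error only, and a difference between the libraries cannot be told apart from one between any 2 mice or preparations.

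A B cell first makes a heavy chain of the IgM class and, on maturing, co-expresses IgD from the same transcript by alternative splicing. After activation it can replace its heavy-chain constant gene by class-switch recombination, and a cell that differentiates into a plasma cell secretes antibody of the class it then carries. Plasma cells devote a large part of their messenger RNA to the heavy chain and the light chain of 1 antibody. The J chain links IgM and IgA units into polymers that epithelia can transport. Bone marrow holds B-cell precursors, recirculating mature B cells and plasma cells.

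The tail that the J chain binds is visible in the reference sequence of the secreted heavy chains. The last 60 coding bases of secreted transcripts are printed for the 2 classes that form J-chain-linked polymers and for 1 IgG subclass as contrast, with the codon of the second-last residue in capitals where it encodes cysteine. They come from the GENCODE vM21 transcripts of GRCm38, read 5′ to 3′ on the minus strand, within the last secreted coding exon.
Ighm, chr12:113420870-113420929: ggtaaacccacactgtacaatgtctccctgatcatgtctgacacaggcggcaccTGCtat
Igha, chr12:113258771-113258830: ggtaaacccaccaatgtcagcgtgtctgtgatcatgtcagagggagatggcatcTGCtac
Ighg2b, chr12:113306392-113306451: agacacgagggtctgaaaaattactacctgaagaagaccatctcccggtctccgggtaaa
In Ighm and Igha, 18 codons follow the opening ggtaaa and form the tailpiece, whose second-last codon is a cysteine codon. The IgG chain ends at its ggtaaa and has 0 cysteine codons in the window. The 7 heavy-chain genes lie together on chromosome 12, from 113254830 to 113422730, and all are on the minus strand. Igkc lies on chromosome 6 (70726435 to 70726966, plus strand), Iglc2 on chromosome 16 (19198396 to 19200351, minus strand) and Jchain on chromosome 5 (88519809 to 88527891, minus strand). The counts are per gene, so secreted and membrane forms of a heavy chain were counted together. Of the 60-base windows in the last 500 bases of 1 secreted transcript of each of the 7 heavy-chain genes, 0 were found in another of these genes. Over all their annotated transcripts 1 overlap was found: 4 of 655 such windows of Ighg2c occur in Ighg2b, whose membrane forms end with the same 60 coding bases, so reads from that stretch can be hard to assign. Iglc2 shared 5.76% of its windows with Iglc3, so reads of this pair can be hard to assign.

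Unique molecular identifiers (UMIs), which count captured RNA molecules, numbered 131884603 in 17073 control barcodes and 110012176 in 14496 barcodes of the MYC library. The members took 1.65% of all UMIs in the control against 0.691% in the MYC library. After filters 14760 and 12645 cells remained, with medians of 5321.5 and 6014 UMIs. The 2 libraries shared 97 barcode sequences, which were kept. No cell was placed in a cluster or named by a member: immunoglobulin genes were kept out of the clustering and out of the marker lists. The plasma cell class had 12 of 12 markers detected in at least 10% of its cells in both libraries, all above their level in the other cells, and the mature B cell class 13 of 13. B progenitors had 10 of 12 markers detected in the control and 11 of 12 in the MYC library. A feature named MYC, whose sequence the sources used here do not give, had 0 UMIs in all 14760 control cells and 295 in the MYC library. Of those, 6 were in plasma cells (6 of 88 cells, 6.82%). In mature B cells of the MYC library 0 of 144 cells had a MYC UMI, which allows a share of up to 2.08% at 3 counts of the total and 2.53% by the exact interval. That limits cells with a UMI, not cells that carry or express the transgene: 2.16% of all cells of the MYC library had one.

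Plasma cells numbered 226 in the control (1.53% of kept cells) and 88 in the MYC library (0.696%), with medians of 20227.5 and 17589 UMIs. An isotype was called where 1 heavy-chain gene held at least 80% of at least 20 heavy-chain UMIs. That gave a call for 219 control cells and 82 cells of the MYC library. The cells without a call, 7 and 6, were shallow, with medians of 691 and 1224.5 UMIs. In the cells with a call the members took a median of 41.2% of all UMIs in the control against 39.2% in the MYC library. The dominant heavy-chain gene held a median of 99.9% of the heavy-chain UMIs in the control against 99.97% in the MYC library, so single cells were close to pure for 1 class.

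IgM was the main class in both libraries, and the classes beside it differed. In the control 159 of 219 plasma cells carried Ighm, or 72.6% (interval 66.2% to 78.4%). In the MYC library 62 of 82 did, or 75.6% (64.9% to 84.4%). The difference of 3.01 percentage points had an interval from -9.19 to 13.9, which includes 0. Class-switched cells, those with Igha or an Ighg gene, made up 27.4% and 24.4%, so their total did not separate the libraries either.

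Within the switched cells the make-up was unlike. Ighg2b, the second class of the control, was called in 36 control cells (16.4%) and in 5 of the MYC library (6.10%), a difference of -10.3 points with an interval from -17.3 to -1.46. Ighg3 was called in 14 control cells (6.39%) and in 0 of 82 in the MYC library, which allows a share of up to 3.66% at 3 counts of the total and 4.40% by the exact interval. Among cells with under 5% mitochondrial UMIs the intervals of the differences for Ighg2b (-17.2 to 0.109 points) and Ighg3 (-10.0 to 0.330 points) included 0. Ighg1 went the other way, with 2 control cells (0.913%) and 7 in the MYC library (8.54%), a difference of 7.62 points (2.07 to 15.9). Igha was called in 1 control cell (0.457%) and in 5 in the MYC library (6.10%), a difference of 5.64 points (1.06 to 13.2). Outside the plasma class, 1 control granulocyte progenitor and 1 control stem or multipotent progenitor also met the rule for Igha and were not counted. In the MYC library, cells outside the plasma class with at least 5% member UMIs held 0 Igha UMIs. Plasma cells held 53.7% of the 8236 Igha UMIs of all kept control cells and 93.6% of 8385 in the MYC library. Ighg2c was at 3.20% and 3.66%, with 7 and 3 cells, and the interval of its difference (-3.91 to 7.39 points) included 0. No plasma cell was called Ighd. These 4 differences rest on few cells, at most 36 for a class in the control against 7 in the MYC library.

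**Figure D1:**
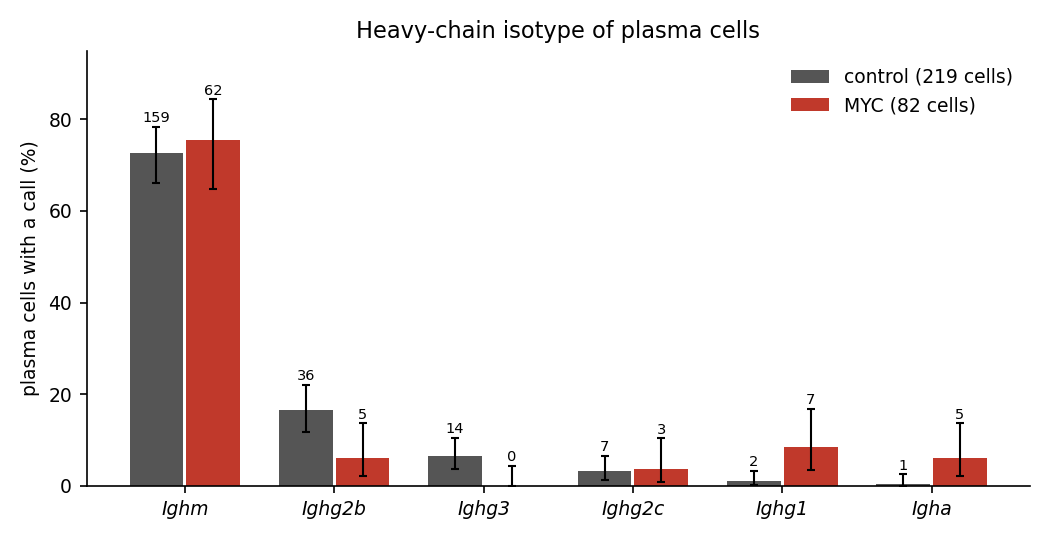
Percent of plasma cells with an isotype call (vertical axis) for each heavy-chain gene (horizontal axis), in the control (grey, 219 cells) and the MYC library (red, 82 cells), with 95% Clopper-Pearson intervals for counting error and the number of cells above each bar. Ighm leads in both at 72.6% and 75.6%, Ighg2b and Ighg3 are higher in the control, and Ighg1 and Igha are higher in the MYC library.

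By summed UMIs, Ighg2b and Ighg3 were again higher in the control and Ighg1 and Igha higher in the MYC library, while the small differences of Ighm and Ighg2c changed sign. Ighm took 75.6% of the heavy-chain UMIs of control plasma cells and 74.3% in the MYC library. That difference of -1.30 points was -4.47 with under 5% mitochondrial UMIs and -12.7 with V pairs shared by 3 or more cells counted by 1 cell. Ighg2b took 13.6% and 7.95%, Ighg3 5.63% and 0.0022%, Ighg1 0.783% and 10.2%, and Igha 0.632% and 4.31%. Ighg2c was at 3.74% and 3.20%. Among plasma cells the rare classes rest on few cells. In the control plasma cells, 1 cell held 97.6% of the Igha UMIs and 2 cells held at least 50% of the Ighg1 UMIs. In those of the MYC library, Igha, Ighg2b and Ighg2c each had at least 50% of their UMIs in 2 cells. Ighd had 4 UMIs in control plasma cells and 3 in the MYC library, near the 3 counts that 0 cannot be told from.

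Per 1000000 UMIs of the plasma class (CPM), 9 of 10 members had the 50 UMIs needed for a count past 2-fold, all but Ighd. Counts past 2-fold, here and in the other classes, and their medians use CPM with a pseudocount of 1 CPM added, which understates the change of low genes, while the ratios printed for single genes have none. Of these, 4 were at least 2-fold lower in the MYC library (Ighg2b, Ighg3, Iglc2 and Jchain), where 4.32% of 5630 features were that much lower. Another 2 were at least 2-fold higher (Igha and Ighg1), where 10.1% of features were. The median log2 ratio of the 9 was -0.83, and that of all 5630 features 0.09. Ighm stood at 121253 CPM in the control against 78638 in the MYC library, for a log2 ratio of -0.62 (-0.63 to -0.62). Ighg3, at 9035 CPM against 2.33, was the member furthest from 0, with a log2 ratio of -11.92 (-13.80 to -10.57) that rests on 4 UMIs in the MYC library.

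Light chains were mostly kappa. Igkc was at 210959 CPM in control plasma cells and 259487 in the MYC library, for a log2 ratio of 0.30 (0.29 to 0.30), and was found in every plasma cell. Iglc2 was at 7655 and 1619 CPM, a log2 ratio of -2.24 (-2.30 to -2.19). Of the cells with an isotype call, 9 of 219 in the control (4.11%, 1.90% to 7.66%) had more lambda than kappa constant UMIs, and 2 of 82 in the MYC library (2.44%, 0.297% to 8.53%). Of the 9 control lambda cells, 6 were led by Iglc2 and 3 by Iglc1, and both lambda cells of the MYC library were led by Iglc1. Iglc1, another lambda constant gene that is no member, accordingly ran opposite to Iglc2, with 13238 UMIs in the control plasma cells and 17551 in the fewer plasma cells of the MYC library. The kappa share of Igkc and Iglc2 together was 2.88 points higher in the MYC library, and 0.84 points higher with Iglc1 and Iglc3 counted as lambda too.

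Jchain was lower in the plasma cells of the MYC library. The summed level was 22828 CPM in the control against 10464 in the MYC library, for a log2 ratio of -1.13 (-1.15 to -1.10), and nearly all cells held at least 1 UMI (97.8% and 94.3%). In Ighm cells the median was 259 Jchain UMIs per 10000 UMIs of the cell in the control, with quartiles of 171 and 328. In the MYC library it was 60.7, with quartiles of 28.8 and 172, so the upper quartile there was at the lower quartile of the control. Summed over Ighm cells, Jchain was 2.55-fold lower in the MYC library (26018 against 10211 CPM).

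The summed level was lower in the MYC library in each class found in both, from few cells outside Ighm. Jchain in Ighg2b cells was at 11646 CPM in the control against 4630 in the MYC library, for a log2 ratio of -1.33 (-1.47 to -1.19). In Ighg2c cells it was at 18481 and 10168 CPM, a log2 ratio of -0.86, from 7 and 3 cells. In Ighg1 cells it was at 25781 and 7622 CPM, a log2 ratio of -1.76, from 2 and 7 cells that overlap: the 2 control cells had 462 and 74.4 Jchain UMIs per 10000, the first with 84.8% of their Jchain UMIs, and the 7 a median of 44.2 (10.7 to 281). Per UMI, Igha cells held the most Jchain in both libraries, by summed level and by cell median. The 1 control cell had 554 Jchain UMIs per 10000, and the 5 cells of the MYC library a median of 285 (212 to 386). Single Ighm cells reached higher values, up to 699 among control cells and 506 among those of the MYC library.

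Between classes, Igha cells had the highest summed Jchain level and Ighg2b cells the lowest of the 5 classes found in both libraries. By cell median, Ighg1 cells were the lowest in the MYC library, at 44.2 Jchain UMIs per 10000 against 62.9 in Ighg2b cells. There 1 of the 7 Ighg1 cells held 65.0% of their Jchain UMIs. In the control, Ighm cells had 1.82-fold more Jchain per UMI than the pooled switched cells. In the MYC library they had 0.89 times the level of the switched cells, where the 5 Igha cells held 2346 of 4700 Jchain UMIs. With Igha cells left out, the switched cells were at 13231 CPM in the control against 7116 in the MYC library, and Ighm cells were 1.97-fold and 1.43-fold above them. Ighm cells also spread widely within a library, from 0 to 699 Jchain UMIs per 10000 in the control and from 0 to 506 in the MYC library, so single cells of the libraries overlap.

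**Figure D2:**
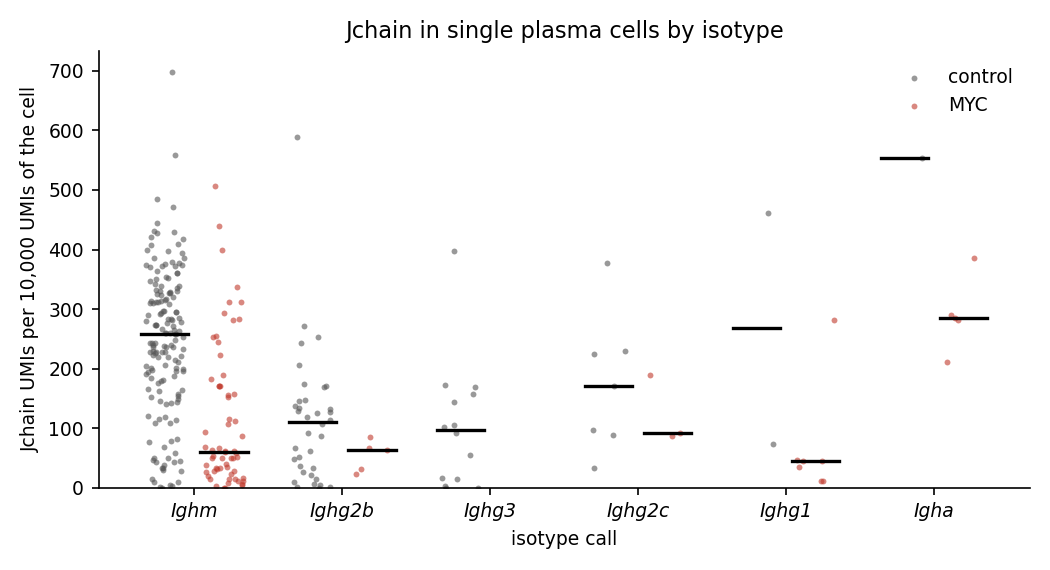
Jchain UMIs per 10000 UMIs of the cell (vertical axis) in single plasma cells by isotype call (horizontal axis), with 1 point a cell, control in grey, MYC library in red, and a black line at the median. In Ighm cells the medians are 259 and 60.7, and the Igha cells of the MYC library lie between 212 and 386.

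Plasma cells that share variable genes are not independent, since they can descend from 1 B cell. Where a cell had at least 5 UMIs of a leading heavy-chain variable gene and of a leading light-chain variable gene, each with at least 50% of its kind, the 2 genes were taken as its V pair. A pair was found in 185 control plasma cells and 69 of the MYC library. The 185 cells held 66 pairs, and 17 pairs with 3 or more cells held 67.6% of them. The 69 cells held 39 pairs, and 7 pairs with 3 or more cells held 47.8%.

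The largest control pair was Ighv1-53 with Igkv5-39, found in 24 cells, of which 24 were Ighm. Ighv1-22 with Igkv12-46 followed with 21 cells, 18 of them Ighm and 3 Ighg3, and Ighv1-9 with Igkv1-122 with 13 cells, 12 of them Ighg2b and 1 Ighm. In the MYC library Ighv1-15 with Igkv12-44 led with 8 cells, all Ighm. Ighv1-76 with Igkv10-96 and Ighv2-9 with Igkv6-32 had 6 cells each, again all Ighm. Ighv1-80 with Igkv4-55 was the 1 pair of 3 or more cells in both, with 6 control cells and 4 of the MYC library. A V pair is no proof of shared descent, because junction sequences were not read here.

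Each V pair of 3 or more cells was then counted by 1 cell, the one with most UMIs, so a pair of mixed classes took the class of that cell. Counted this way, Ighm made up 71.2% of 111 control cells and 67.9% of 56 in the MYC library. Igha stood at 0.901% and 8.93% (8.03 points, 0.836 to 18.8), and Ighg1 at 1.80% and 12.5% (10.7 points, 2.07 to 22.4), so both kept intervals above 0. The intervals for Ighg2b (-17.8 to 3.68 points) and Ighg3 (-13.7 to 0.34 points) then included 0. The intervals of both had excluded 0 over all cells.

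Jchain levels in the MYC library differed between V pairs. Its Ighm cells in pairs of 3 or more cells had a median of 34.2 Jchain UMIs per 10000 (29 cells), those in smaller pairs 177 (24 cells), and those with no pair 33.0 (9 cells). In the control these medians were 259 (92 cells), 269 (42 cells) and 215 (25 cells). The cells with no pair were shallower, with medians of 10943 UMIs in the control against 3732. The 6 cells of Ighv2-9 with Igkv6-32 had a median of 6.05 and those of Ighv1-15 with Igkv12-44 a median of 33.6. The pair with 3 or more cells in both libraries, Ighv1-80 with Igkv4-55, had medians of 198 in the control against 155 in the MYC library. The classes were not matched there: the control cells were 4 Ighm, 1 Ighg2b and 1 Ighg3, and those of the MYC library 4 Ighm. With pairs counted by 1 cell the log2 ratio of Jchain in all plasma cells was -0.96, against -1.13 over all cells.

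Other genes of the plasma cell program were given by lists. Of 26 genes for secretory differentiation, 21 could be counted in plasma cells (5 others led a cluster and were left out), and 2 were at least 2-fold higher and 2 at least 2-fold lower in the MYC library, where 10.1% and 4.32% of all features were, with a median log2 ratio of 0.09, as for all features. Ssr4, a subunit of the translocon-associated complex, was at 645 CPM in the control against 1793 in the MYC library. Fkbp11, a folding enzyme of the endoplasmic reticulum, was at 93.3 and 225 CPM. Ell2, an elongation factor that favours the secreted form of heavy-chain messenger RNA, was at 188 and 80.9 CPM, a log2 ratio of -1.22 (-1.49 to -0.96). Dnajb9, a chaperone induced by unfolded proteins, was at 137 and 65.2 CPM. Of 19 genes for the B-cell receptor and its signalling, 13 could be counted in plasma cells, 0 at least 2-fold higher and 2 at least 2-fold lower, where 10.1% and 4.32% of all features were. With no pseudocount 4 were lower, where 5.44% of features were, as Ms4a1 (36.9 and 18.0 CPM) and Fcmr (131 and 25 UMIs, a log2 ratio of -1.05) join. The 2 lower with the pseudocount were Blk, at 10.5 and 2.33 CPM, and the B-lineage factor Ebf1, at 11.5 and 2.33 CPM, each with 4 UMIs in the MYC library. Bank1, an adaptor of the receptor, was at 12.2 and 19.8 CPM, and Cd74, the invariant chain, at 2216 and 3042 CPM. Of 14 genes for class switching 1 could be counted, Rif1, a factor of DNA end protection, at 28.4 and 28.5 CPM. Among 9 other immunoglobulin genes 3 could be counted: Iglc1, at 3036 and 10211 CPM, Iglc3, at 1296 and 508 CPM, and Vpreb3, at 15.6 and 30.8 CPM.

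Of 18 genes for homing, niche and cycling, 14 could be counted (Epcam, an adhesion molecule, led the plasma cluster and was left out), 3 at least 2-fold higher and 2 at least 2-fold lower, against the same shares of all features. Ly6c2, a surface antigen of myeloid and some lymphoid cells, was at 334 CPM in control plasma cells and 3037 in the MYC library, for a log2 ratio of 3.19 (3.10 to 3.27). The other 2 higher genes were Klf2, a factor that controls lymphocyte trafficking, with 218 and 207 UMIs and a log2 ratio of CPM of 1.27 (0.99 to 1.55), and Top2a, which untangles chromosomes in dividing cells, at 28.2 and 58.8 CPM. Cxcr4, the receptor for the marrow chemokine Cxcl12, was at 46.6 and 18.0 CPM, a log2 ratio of -1.37 (-1.96 to -0.82). Cxcr3, a chemokine receptor linked to type 1 inflammation, was at 11.9 CPM and, with 2 UMIs, at 1.16 CPM. Within the control, Cxcr3 UMIs were found in 40.0% of 60 switched plasma cells (27.6% to 53.5%) and in 4.40% of 159 Ighm cells (1.79% to 8.86%), at like depths of 19821 and 21343 median UMIs. In the MYC library they were found in 2 of 20 switched cells and 0 of 62 Ighm cells. The share in mature neutrophils, at medians of 3801 and 4918 UMIs, was 0.363% in the control against 0.131%. In Ighm cells Mki67, a gene of cycling cells, was at 80.4 CPM in the control against 82.3 in the MYC library, and Top2a at 27.6 and 73.8 CPM, with a Top2a UMI in 32.7% and 32.3% of cells. In switched cells both were lower in the MYC library, Mki67 at 88.8 and 39.1 CPM and Top2a at 29.0 and 4.88 CPM, the last from 2 UMIs. In mature neutrophils Mki67 was at 121 and 76.3 CPM and Top2a at 69.1 and 52.6 CPM. For both genes the control Ighm cells were below the neutrophil value of their library, and the Ighm cells of the MYC library above it. Ighm cells were far deeper, with medians of 21343 and 18445.5 UMIs. This comparison therefore cannot tell whether either gene was at background in Ighm cells.

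Mature B cells numbered 510 in the control against 144 in the MYC library, with medians of 4481.5 and 4847 UMIs. Ighm was at 7571 CPM in the control against 2105 in the MYC library, for a log2 ratio of -1.85 (-1.92 to -1.77). Ighd was at 541 and 667 CPM, a log2 ratio of 0.30 (0.15 to 0.45), and -0.0100 as a mean over cells, so the direction for Ighd depends on how cells are weighted while Ighm was lower both ways. The ratio of Ighd to Ighm UMIs was 0.0714 in the control against 0.317 in the MYC library.

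Much of the Ighm sum came from few cells. In 8 control cells of the class and 1 of the MYC library the members took at least 5% of all UMIs (8.82% to 34.7% in the control cells). The 8 cells held 10188 of the 21992 Ighm UMIs. Without these 9 cells Ighm was at 4295 and 2181 CPM, a log2 ratio of -0.98 (-1.06 to -0.90), and Ighd to Ighm was 0.132 (0.125 to 0.139) against 0.317 (0.286 to 0.352). In the typical cell the difference was of that smaller size: the median cell held 16 Ighm UMIs in the control against 9.5 in the MYC library, and 2 and 3 Ighd UMIs. Among cells with at least 10 UMIs of the 2 genes, Ighd took a median of 15.4% in 441 control cells and 24.5% in 102 cells of the MYC library. A share of at least 20% was found in 39.7% of these control cells (35.1% to 44.4%) and in 60.8% of those of the MYC library (50.6% to 70.3%).

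**Figure D3:**
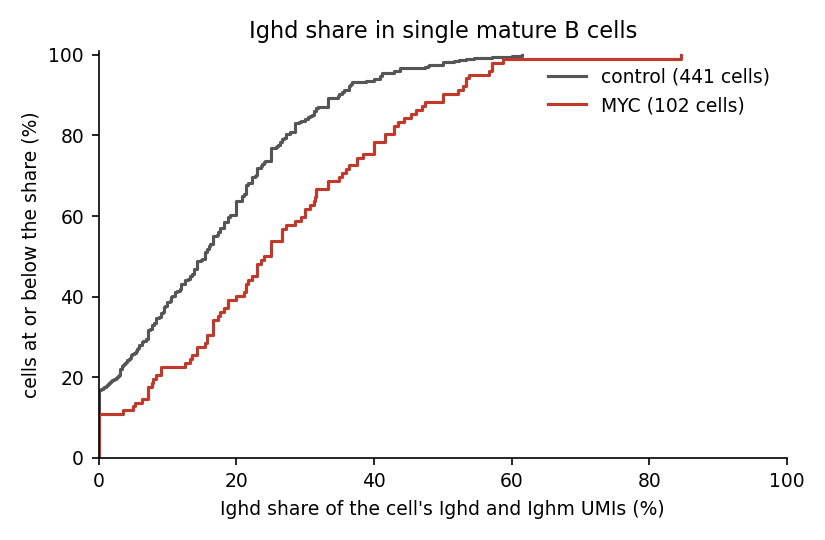
Cumulative percent of mature B cells (vertical axis) against the Ighd share of a cell's Ighd and Ighm UMIs in percent (horizontal axis), for cells with at least 10 such UMIs, in the control (grey, 441 cells) and the MYC library (red, 102 cells). The curve of the MYC library lies to the right over most of its length, with medians of 24.5% against 15.4%.

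All 10 members had 50 UMIs in the mature B class. Of these, 5 were at least 2-fold lower in the MYC library (Ighm, Igha, Ighg1, Ighg2b and Ighg3), where 7.45% of 6309 features were. Ighg2c was at least 2-fold higher, where 1.92% of features were, and 99.4% of its UMIs in the MYC library came from 1 cell with 1942 UMIs. Without the 9 cells rich in members, Ighg2c was lower in the MYC library instead (47.7 and 17.2 CPM, log2 ratio -1.47). Ighg3 had 219 UMIs in the control against 0 in the MYC library, at least 18.2-fold lower against a floor of 3 counts over the class. It was found in 22.7% of control mature B cells, against 17.3% of mature neutrophils, which lie outside the B lineage and were shallower (medians of 4481.5 and 3801 UMIs). Ighg1 turned direction as well: its log2 ratio of -1.52 was 3.02 with cells classified by markers alone. Jchain was at 213 and 243 CPM over all cells of the class, a log2 ratio of 0.19 with an interval (-0.06 to 0.43) that includes 0, and at 114 and 27.2 CPM without the 9 cells, so its direction depends on those cells. In the MYC library 1 cell held 89.2% of its Jchain UMIs. Without the 9 cells Igkc was at 5445 and 3802 CPM, a log2 ratio of -0.52. With under 5% mitochondrial UMIs the log2 ratio of Igkc was 0.22, against -0.69 over all cells. Over the class without the 9 cells, 6 of 10 members were at least 2-fold lower (Igha, Ighg1, Ighg2b, Ighg2c, Ighg3 and Jchain) and 0 higher, where 8.52% and 1.9% of 6142 features were.

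Other genes of mature B cells were counted by the same lists. Of 24 secretory genes counted, 9 were at least 2-fold lower and 0 higher, where 7.45% and 1.92% of all features were, with a median log2 ratio of -0.59, where that of all features was -0.25. Without the 9 cells rich in members, 6 of 21 were lower and 1 higher, where 8.52% and 1.9% of features were. Their median log2 ratio was then -0.54, where that of all features was -0.26. Derl3, part of the degradation pathway of the endoplasmic reticulum, was at 34.4 and 8.29 CPM over all cells of the class, and Edem1, of the same pathway, at 96.7 and 24.9 CPM. Ssr4 was at 101 and 195 CPM, and Sec61b, a subunit of the protein-conducting channel, at 229 and 264 CPM.

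Of 14 genes for class switching 9 could be counted, and 3 were at least 2-fold lower and 0 higher, with and without the rich cells. Of all features, 7.45% were that much lower and 1.92% higher with the rich cells, and 8.52% and 1.9% without them. Trp53bp1, a repair factor, was at 20.7 and 6.91 CPM, the latter from 5 UMIs. Shld2, of the shieldin complex, was at 14.1 and 22.1 CPM, and Apex1, a base-excision nuclease, at 22.0 and 30.4 CPM. Of 12 homing and cycling genes counted, 2 were at least 2-fold lower and 1 higher (7.45% and 1.92% of all features). Without the rich cells these counts were 2 and 0 (8.52% and 1.9% of features). Mki67 was at 351 and 158 CPM, Top2a at 224 and 88.4 CPM, Ly6c2 at 62.7 and 159 CPM, and Klf2 at 490 and 579 CPM. Of 19 genes for the B-cell receptor and its signalling, 6 were among the leading genes of the class and were left out. Of the other 13 counted, 0 were past 2-fold in either direction, with and without the rich cells. With shares of all features of only 7.45% lower and 1.92% higher (8.52% and 1.9% without the rich cells), 0 of 13 says little. Cd79a, which pairs with membrane immunoglobulin, was at 1284 and 1441 CPM, and Cd74 at 6402 and 7055 CPM. Syk, a kinase of the receptor's signalling, was at 381 and 231 CPM. The 3 other immunoglobulin genes counted were within 2-fold: Iglc1 at 452 and 796 CPM, Iglc3 at 529 and 580 CPM, and Vpreb3 at 89.2 and 116 CPM. The part that the make-up of the class plays in the lower Ighm was not tested.

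B progenitors were the class with the fewest cells in the MYC library, 18 against 470 in the control, so no ratio between the libraries is given. Ighm was at 3557 CPM (3497 to 3617) in the control and 3937 (3532 to 4375) in the MYC library, and found in all cells of both. Ighd was at 46.3 and 57.1 CPM, with 174 and 5 UMIs. The Ighd to Ighm ratio was 0.0130 and 0.0145 in these cells, below that of mature B cells in both libraries. Igkc was at 1847 and 3389 CPM and Iglc2 at 135 and 205 CPM.

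**Figure D4:**
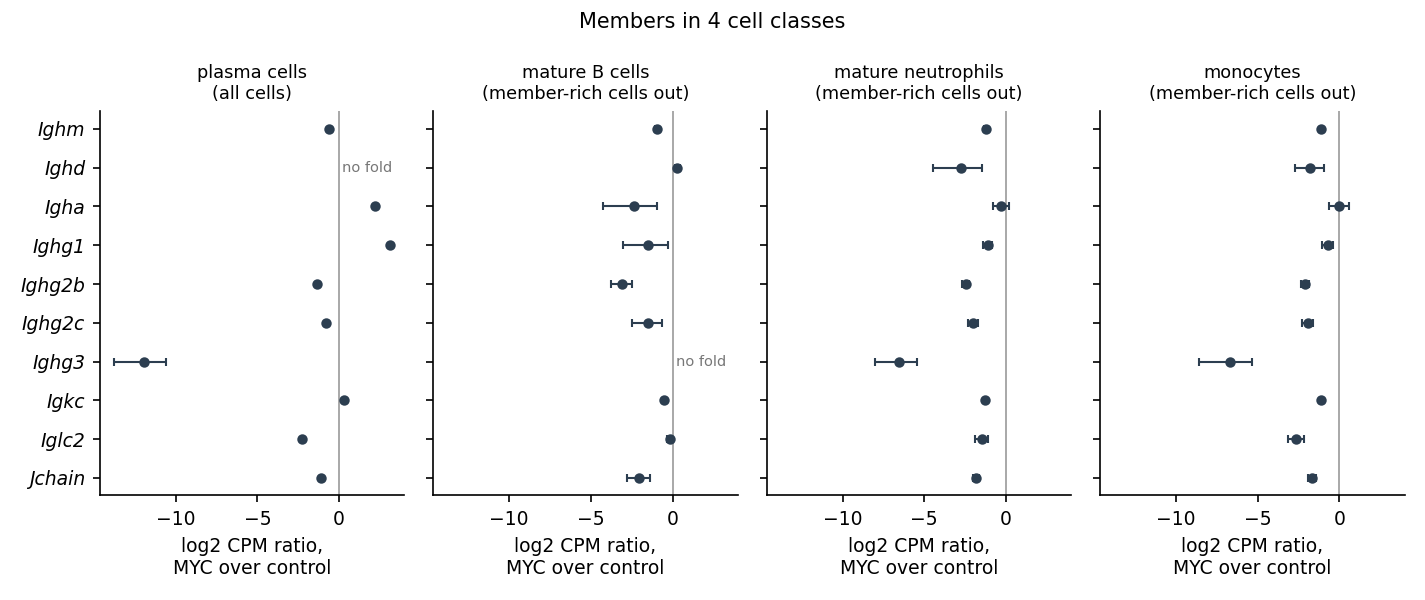
Log2 ratio of CPM, MYC library over control (horizontal axis), for the 10 members (vertical axis) in plasma cells, mature B cells, mature neutrophils and monocytes, with 95% counting intervals; cells rich in members were left out of the last 3 classes, and "no fold" marks too few UMIs or a library at 0. Igha and Ighg1 lie above 0 in plasma cells, at 2.17 and 3.11, and Igha is the member nearest 0 in neutrophils and monocytes.

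Cells of the named classes outside the B lineage held member UMIs at a low level almost everywhere. Clusters left unnamed for low depth, 17.1% of kept control cells and 21.2% of those of the MYC library, held more. Their median member share was 1.87% over 2526 control cells, at a median of 747.5 UMIs a cell. The 2685 such cells of the MYC library had a median share of 0.599%, at 806 UMIs. In mature neutrophils, which make no antibody, Igkc was detected in 97.3% of the 3584 control cells, against 83.4% of 2289 cells in the MYC library, and the members together took a median of 0.188% and 0.0646% of a cell's UMIs. Igkc stood at 1070 CPM in the control against 449 in the MYC library, Ighm at 491 and 207 CPM, and Jchain at 89.2 and 25.3 CPM. These values serve as the background level against which other classes are set. They were lower in the MYC library, where plasma cells were 0.696% of kept cells against 1.53% in the control. The part of that difference in the background was not tested.

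The composition of this background differed between the libraries in the direction of their plasma cells for Ighg2b, Jchain and Igha, and not for Ighm. In mature neutrophils Ighg2b to Igkc was 0.119 in the control against 0.0511 in the MYC library, Jchain to Igkc 0.0834 and 0.0564, and Igha to Igkc 0.00628 and 0.0121. In plasma cells Ighg2b to Igkc was 0.103 and 0.0324, Jchain to Igkc 0.108 and 0.0403, and Igha to Igkc 0.00481 and 0.0176. Ighm to Igkc, by contrast, was 0.459 in control mature neutrophils and 0.460 in those of the MYC library, and 0.575 and 0.303 in plasma cells. Ighg3 was detected in 17.3% of control mature neutrophils and 0.262% of those of the MYC library, like its near absence from the plasma cells there.

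Counts past 2-fold, with all cells of a class used and features of at least 50 UMIs, ran the same way in most classes. In mature neutrophils 7 of 9 members counted were lower in the MYC library and 0 higher, where 4.15% and 1.86% of 8972 features were. In the neutrophil lineage as a whole 8 of 10 were lower and 0 higher (1.82% and 0.536% of 11743 features). With no pseudocount all 10 were lower, Ighd (2.11 and 0.598 CPM) and Ighg1 included, where 5.17% of features were. Monocytes had 8 of 10 lower and 0 higher (3.24% and 1.67% of 10690 features). In stem or multipotent progenitors 7 of 9 were lower and 0 higher (1.75% and 0.757% of 10309 features), and in erythroid cells 7 of 9 and 0 (2.69% and 3.15% of 10024 features). T or NK cells had 6 of 8 lower and 0 higher (3.4% and 2.1% of 6617 features), and plasmacytoid dendritic cells 8 of 8 and 0 (7.91% and 6.66% of 6296 features). Macrophages differed, with 1 of 6 members lower and 2 higher (9.71% and 21.5% of 6810 features), from 20 control cells. Without the cells rich in members, fewer members were past 2-fold in 5 of these classes. T or NK cells then had 4 of 7 lower (3.38% of 6594 features, and 2.11% higher), erythroid cells 3 of 9 (2.63% and 3.2% of 10004), stem or multipotent progenitors 6 of 8 (1.76% and 0.747% of 10307), the neutrophil lineage 7 of 10 (1.78% and 0.554% of 11730; 9 of 10 with no pseudocount, where 4.99% of features were lower) and plasmacytoid dendritic cells 7 of 8 (8.02% and 6.75% of 6283). Monocytes stayed at 8 of 10 (3.24% and 1.68% of 10685) and mature neutrophils had 8 of 9 (4.18% and 1.86% of 8971), and no member was at least 2-fold higher in any of the 7. Igkc in T or NK cells was at 3079 CPM in the control against 467 with the rich cells and at 650 against 467 without them, and in erythroid cells at 1229 against 234 and at 379 against 234. Ighm in plasmacytoid dendritic cells was at 2278 against 700 CPM with them.

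All 10 members enter these counts wherever they had the UMIs, and they share 1 background within a library, so they are not 10 separate observations.

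A few cells outside the plasma class held many member UMIs. These made up at least 5% of the UMIs in 30 control cells (5.20% to 36.2%) and 21 cells of the MYC library (5.01% to 38.7%), the 9 mature B cells included, below the plasma medians of 41.2% and 39.2%. In the control they had a median of 22737.5 UMIs, against 5321.5 for all kept cells, and in the MYC library 988 UMIs. In the control 5 granulocyte progenitors held 12427 of the 13828 Ighm UMIs of their class, 1 monocyte held 4117, and 1 T or NK cell held 2973 Ighg2c UMIs. Unnamed shallow clusters held 16 of the cells of the MYC library, and all but 1 of these met the isotype rule. These cells passed the doublet filter, and whether they are doublets was not tested. Igkc in the neutrophil lineage was 1326 CPM in the control against 275 in the MYC library with them, a log2 ratio of -2.27, and 604 and 257 CPM without them, a log2 ratio of -1.23.

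**Figure D5:**
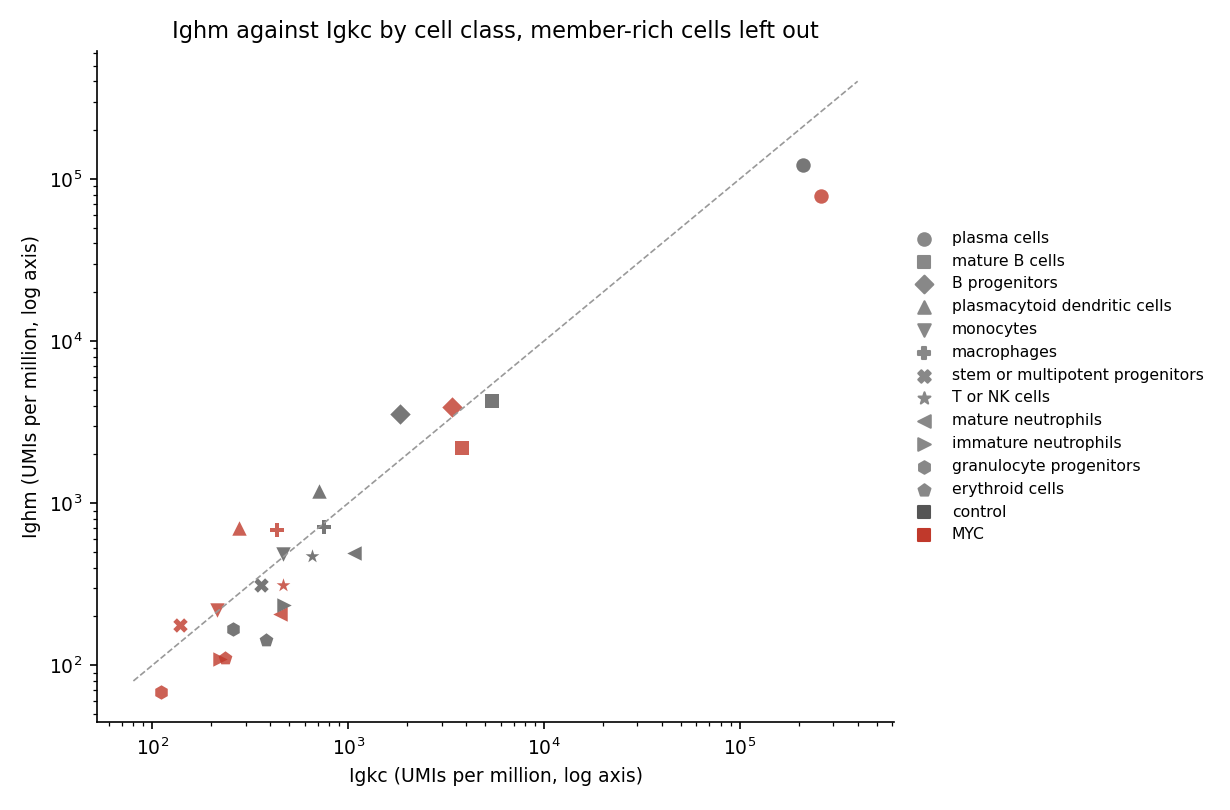
Ighm (vertical axis) against Igkc (horizontal axis) in UMIs per 1000000 (CPM), both on log axes, for 12 cell classes (marker shape) in the control (grey) and the MYC library (red), cells rich in members left out; the dashed line marks equal levels. Plasmacytoid dendritic cells lie above the line in both libraries, and neutrophil and erythroid classes below it.

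Some classes stood apart from this background in the ratio between members. Ighm to Igkc was 1.68 in control plasmacytoid dendritic cells (1.58 to 1.79) and 2.53 in those of the MYC library (2.15 to 2.99), against 0.459 and 0.460 in mature neutrophils. Ighm was at 1194 and 700 CPM there, 2.43-fold and 3.39-fold the level of the mature neutrophils of the same library, and was found in 99.6% of 262 control cells and all 69 of the MYC library. Igkc in the same cells was below the neutrophil level in both libraries, 0.663 and 0.616 times. In monocytes Ighm to Igkc was 1.05 and 1.02, and in stem or multipotent progenitors 0.872 and 1.28. These are differences between classes of 1 library in counting error only, and depth differs between them: the median was 8633 UMIs in control plasmacytoid dendritic cells and 3801 in mature neutrophils.

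Macrophages were seen mainly in the MYC library, with 658 cells against 20 in the control. In these 658 cells Ighg2b was at 261 CPM, 11.4-fold the level of mature neutrophils of that library, and was detected in 50.2% of cells against 9.52%, with at most 19 UMIs in a cell. Ighg2c was 4.42-fold (46.3 CPM), Ighm 3.29-fold (680 CPM), and Ighd 40.0-fold (17.5 CPM, detected in 8.21% of cells) the neutrophil level, the last against 5 UMIs. Igkc, Iglc2 and Jchain were at 0.970, 1.04 and 0.904 times it, all near the neutrophil level. Heavy-chain variable genes were at 1.72 CPM in these macrophages and 2.97 CPM in the mature neutrophils of the MYC library. In the 20 control macrophages Ighg2b was at 138 CPM, 1.09-fold the neutrophil level (log2 ratio 0.12, -0.69 to 0.82).

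The genes whose level followed a member most closely over 32 points, 16 classes in 2 libraries, were ranked by Pearson correlation of log2 levels among 11892 features outside the immunoglobulin loci. The points share library, depth and background, so the values are descriptions. Closest to Jchain were Tnfrsf17 (r = 0.89), the survival receptor of plasma cells, Chst1 (0.86), Kcnmb4os2 (0.86), Cacna1h (0.84) and Prlr (0.83). Closest to Ighm were Eaf2 (0.92), Gm30211 (0.88), Mzb1 (0.87), a chaperone of IgM assembly, Derl3 (0.86) and Kcnmb4os2 (0.83). Igkc had Eaf2 (0.87), Nuggc (0.87), Chst1 (0.86), Tnfrsf17 (0.86) and Kcnmb4os2 (0.85). Ighd stood apart with genes of mature B cells: Pax5 (0.89), the B-lineage transcription factor, Ccr7 (0.88), a lymph-node homing receptor, Chst3 (0.87), Cd22 (0.86), an inhibitory co-receptor, and Blk (0.86), a kinase of the B-cell receptor.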

How the data were processed

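Single bone marrow cells of 2 genotypes were measured in 1 library each with a 10x 3′ kit, per the labels' protocols. The authors deposited raw UMI counts for each gene in each barcode, made with Cell Ranger 6.0 per the submitters' processing notes, which also name Seurat, GRCm38 and mm10; how barcodes were called and which annotation was counted are not given in the sources used here. Positions and sequences come from GENCODE vM21 of GRCm38, matched by gene identifier for 10 of 10 members.

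Members and lists were chosen with earlier results of these data known. Cells had at least 500 UMIs and 200 genes and at most 10% mitochondrial UMIs; Scrublet doublets (701 and 251) were removed at an expected 0.8% per 1000 barcodes. Both libraries were clustered together (scanpy 1.11.5, Leiden resolution 1, 2000 variable genes, 30 components) without immunoglobulin genes, and clusters were named from markers of 18 types. Clusters with a median under 1/5 of their library's UMIs were left unnamed, a choice made after seeing the data. Counts were summed per class and library and given per 1000000 UMIs (CPM). Intervals are exact Poisson for levels, Clopper-Pearson for shares, conditional binomial for ratios and Newcombe for differences, all 95%. PCR copies were collapsed by UMI. No test was run. Ratios between the libraries in a class needed 20 cells a library and 10 UMIs, and counts past 2-fold 50 UMIs, on CPM with a pseudocount of 1. Ratios within an isotype had no cell minimum. Examples from the lists were the 2 largest and 2 smallest ratios, with Mki67, Top2a and Ccr and Cxcr genes named after their values were seen. Some genes that this rule picked are not reported here. The minimum of 5 UMIs for a V pair was set after seeing values. Free RNA was not corrected. The counting and ratio steps were tested on simulated data. Alternatives were other filters, clusterings, scalings and isotype rules.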

Additional observations from a re-analysis of the deposited data

How the results depend on the processing

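Over 46 values and 493 recomputed settings, 273 stayed within the counting interval of the main value, 214 left it and 6 turned direction against an interval that had excluded 0. No paired analysis was possible because each genotype has 1 library. No setting moved the Ighm or the Igha share of plasma cells out of its interval (-3.31 to 3.83 and 4.41 to 8.03 points); the Ighm difference changed sign, from 3.01 points to -3.31 with V pairs counted by 1 cell, and both intervals include 0. The Ighm share of heavy-chain UMIs, -1.30 points, was -4.47 with under 5% mitochondrial UMIs, -0.71 with at least 1000 UMIs and 500 genes, -2.65 without the cell richest in members and -12.7 with shared V pairs counted by 1 cell. The kappa share, 2.88 points higher in the MYC library, was 2.94, 2.78 and 2.68 with under 5% mitochondrial UMIs, with at least 1000 UMIs and with cells classified by markers alone, and 0.84 with all lambda genes.

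The log2 ratio of Jchain in plasma cells, -1.13, was -1.08, -1.09 and -1.06 under those same 3 settings, -1.17 per UMI outside immunoglobulin genes, -0.90 as a mean over cells, -1.22 by median-of-ratios scaling and -0.96 with V pairs counted by 1 cell. Ighm in mature B cells, -1.85, was -1.70, -1.60 and -0.91 under the 3 settings, -1.44 with doublets kept, -1.50 without the richest cell, -1.08 as a mean over cells, -1.59 by median-of-ratios scaling and -0.98 without member-rich cells. The log2 ratio of Ighd to Ighm, 2.15, was 1.95, 1.91 and 1.24 under the 3 settings, 1.85 with doublets kept, 1.86 without the richest cell and 1.27 without member-rich cells. Igkc in the neutrophil lineage, -2.27, was -1.76, -1.13 and -1.35 under the 3 settings, -2.19 with doublets kept, -2.20 and -2.01 at Leiden resolutions 0.5 and 2, -1.98 without the richest cell, -1.34 as a mean over cells, -2.01 by median-of-ratios scaling and -1.23 without member-rich cells.

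The 6 that turned direction were all in mature B cells: Ighd, 0.30, was -0.0100 as a mean over cells; Ighg1, -1.52, was 3.02 by markers alone; Igkc, -0.69, was 0.22 with under 5% mitochondrial UMIs; Ighg2c, 1.58, was -1.74 by markers alone, -5.73 without the richest cell and -1.47 without member-rich cells. With no pseudocount, counts past 2-fold differed for the members in the neutrophil lineage alone among 10 classes (10 lower against 8, and 9 against 7 without member-rich cells), and for the gene lists of plasma and mature B cells in the B-cell receptor list of plasma cells alone (4 lower against 2). The share of all features lower then rose from 1.82% to 5.17% in the neutrophil lineage, from 4.15% to 6.28% in mature neutrophils, from 3.24% to 4.93% in monocytes and from 1.75% to 2.94% in stem or multipotent progenitors, and the share higher from 0.536% to 1.51% in the neutrophil lineage and from 1.67% to 2.57% in monocytes. The cause was not tested beyond the cells left out. The settings with no pseudocount, without member-rich cells, with V pairs counted by 1 cell, with all lambda genes and with called cells alone were chosen after seeing the data. With 88 and 144 cells in the B-lineage classes of the MYC library, a class at 0 cells cannot be told from one at a few percent.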
